A study of Mus musculus with 12 samples.

Results

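The genes of glycolysis, glucose and lactate transport and the classic targets of the hypoxia-inducible factors were followed in differentiating mouse erythroid cells deprived of zinc, iron or protoporphyrin. The set held 35 genes, named by symbol among 55367 gene symbols. All 35 had a row in every table, 30 were tested (at least 1 TPM in at least 3 of the 12 libraries), and 5 were listed at 0 throughout. The cells were G1E-ER4, mouse erythroid progenitors without endogenous GATA1, in which a GATA1 and estrogen receptor fusion protein is switched on by estradiol and drives terminal maturation. All 4 groups, of 3 biological replicates each, received 100 nM β-estradiol and erythropoietin and were harvested at 24 h. The control group had no further agent, the DTPA group had 50 µM of this chelator to lower zinc, the DFO group had 50 µM of this iron chelator, and the SA group had 0.2 mM SA to inhibit ALAD, an enzyme of heme synthesis. The treatment protocol names DFO for the ALAD group as well, and the titles, which name SA, were followed. All libraries come from 1 cell line, the controls differentiate too, and no undifferentiated or low-oxygen culture was analysed here.

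Glycolysis splits glucose into pyruvate and yields ATP without oxygen, and red cells, which lose their mitochondria as they mature, come to depend on it. Lactate dehydrogenase turns pyruvate into lactate, and pyruvate dehydrogenase kinases keep pyruvate out of the mitochondria. When oxygen is low, the α subunits of the hypoxia-inducible factors (HIF) escape prolyl hydroxylation, pair with ARNT and activate many genes of this pathway through DNA elements with the core A or G followed by CGTG. The prolyl hydroxylases need iron, and for that reason iron chelators such as DFO are widely used to mimic hypoxia.

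The promoters of the 5 genes with the largest falls under DTPA (Vegfa, Pdk1, Ldha, Bnip3 and Pfkl) and of the gene that rose with every treatment (Pfkm) are shown because the letters of the HIF core can be read in them. Each is the 250 bases before a RefSeq start site on build GRCm38.p6, read 5′ to 3′ on the strand of the gene. The windows are chr17:46032378-46032627 (minus strand) for Vegfa, chr2:71872974-71873223 (plus) for Pdk1, chr7:46845554-46845803 (plus) for Ldha, chr7:138909507-138909756 (minus) for Bnip3, chr10:78009808-78010057 (minus) for Pfkl and chr15:98092339-98092588 (plus) for Pfkm. For a gene with several start sites the window nearest to the GENCODE gene start was taken, which was 4329 bases away for Ldha, 276 for Pfkl and at most 13 for the others. Capitals mark ACGTG or GCGTG on either strand, so that CACGT and CACGC are their reverse complements, and CACGTG holds ACGTG on both strands and counts as 2 matches.
Vegfa: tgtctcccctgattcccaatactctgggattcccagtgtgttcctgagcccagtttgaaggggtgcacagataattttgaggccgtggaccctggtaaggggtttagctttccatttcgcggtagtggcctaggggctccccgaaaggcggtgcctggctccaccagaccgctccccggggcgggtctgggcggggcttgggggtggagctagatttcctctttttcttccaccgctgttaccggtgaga
Pdk1: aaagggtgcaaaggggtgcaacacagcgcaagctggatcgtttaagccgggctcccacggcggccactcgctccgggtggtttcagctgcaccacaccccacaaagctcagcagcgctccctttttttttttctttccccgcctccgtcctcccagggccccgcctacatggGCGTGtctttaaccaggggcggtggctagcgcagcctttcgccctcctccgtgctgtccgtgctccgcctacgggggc
Ldha: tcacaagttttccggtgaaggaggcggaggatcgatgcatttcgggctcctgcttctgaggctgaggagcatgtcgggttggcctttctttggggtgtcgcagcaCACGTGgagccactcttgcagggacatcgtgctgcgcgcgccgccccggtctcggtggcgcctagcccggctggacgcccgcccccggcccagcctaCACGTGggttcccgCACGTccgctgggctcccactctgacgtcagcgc
Bnip3: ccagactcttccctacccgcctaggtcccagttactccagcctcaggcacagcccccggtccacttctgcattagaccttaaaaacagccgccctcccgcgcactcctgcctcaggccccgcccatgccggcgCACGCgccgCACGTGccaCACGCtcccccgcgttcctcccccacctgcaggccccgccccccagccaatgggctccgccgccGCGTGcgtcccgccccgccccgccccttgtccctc
Pfkl: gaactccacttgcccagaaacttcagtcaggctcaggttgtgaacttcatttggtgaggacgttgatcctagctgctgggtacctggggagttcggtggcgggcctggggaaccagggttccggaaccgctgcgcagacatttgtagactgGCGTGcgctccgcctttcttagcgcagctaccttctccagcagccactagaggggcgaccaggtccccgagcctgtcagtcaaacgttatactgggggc
Pfkm: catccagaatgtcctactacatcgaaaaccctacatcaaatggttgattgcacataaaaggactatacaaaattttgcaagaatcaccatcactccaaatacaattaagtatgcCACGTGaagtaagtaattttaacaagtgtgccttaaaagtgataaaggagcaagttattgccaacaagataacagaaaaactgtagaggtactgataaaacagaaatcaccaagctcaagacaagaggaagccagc
The Ldha window held 5 matches to ACGTG, among them both CACGTG runs, and the Bnip3 window held 2 matches to ACGTG and 3 to GCGTG. The Vegfa window held neither motif, although the other of its 2 windows held 1 of each. The Pfkm window, 1 of 4 for this gene, held 1 CACGTG run, counted as 2 matches. Use of these start sites or matches in these cells was not tested.

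Of the 35 symbols, 32 matched RefSeq windows, and 29 of these were tested genes. ACGTG on either strand lay in at least 1 window of 16 of the 29 genes (55.2%), against 26.7% of all 7842 tested genes with a window. Counted by window of the same 250 bases, ACGTG was in 42.9% of the 42 windows of these genes, in 23.1% of the windows of all tested genes and in 16.6% of all 32851 windows. GCGTG was in 57.1%, 46.7% and 28.2% of the same sets. Median GC content was 62.2% in the windows of these genes, 60% for all tested genes and 52.4% for all windows. These are counts of letters and not of bound sites.

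Reads recovered from the TPM values came to between 19864704 and 24339697 per library. All 14 erythroid markers examined reached 1 TPM in at least 3 libraries. Their summed level was 39909 to 44260.4 TPM in control and 44614 to 54398 with DTPA, whose lowest library lay just above the highest control. With DFO it was 29576 to 31956 TPM and with SA 24488 to 26442, both below control. In the DTPA libraries Hbb-bt, an adult beta-globin gene, stood at 11222, 4004 and 2782 TPM, a range that overlapped control. Hba-a1, an alpha-globin gene, was lower with DTPA (log2 -0.19). The sum is mostly globin RNA, and most single markers went down: by the limma test described next, 2 of the 14 rose and 10 fell with DTPA, 1 and 7 with DFO, and 1 and 8 with SA. With DTPA, Hbb-bs, an adult beta-globin gene, rose from 19234 ± 1307 to 26214 ± 1077 TPM and Alas2, the first enzyme of erythroid heme synthesis, from 2268 ± 17.9 to 3002 ± 10.3. The red cell anion exchanger gene Slc4a1 fell from 718 ± 33.4 to 45.5 ± 3.32 TPM (log2 -3.95). Gata1 fell from 2501 ± 68.6 to 1058 ± 25.5 TPM (log2 -1.24), all with SD of n = 3. Because these cells lack endogenous GATA1 and carry a GATA1 fusion, Gata1 reads may come in part or whole from the fusion gene. Their source was not tested. Of 12 megakaryocyte markers 4 reached 1 TPM in at least 3 libraries, and Ppbp and Gp6 were among those at 0 in every library. The 12 summed to 8.32 to 9.53 TPM in control and 37.0 to 46.1 with DTPA. With DFO they summed to 10.4 to 11.1 TPM and with SA to 8.53 to 10.0. By the limma test described next, Itgb3 rose with DTPA from 2.15 ± 0.189 to 17.0 ± 0.843 TPM (log2 2.51). Gp1ba rose from 4.30 ± 0.463 to 18.5 ± 3.15 TPM (log2 1.87), and also rose with DFO (log2 0.45). Gp9 rose less with DTPA (log2 0.78), with libraries that overlapped control, and Itga2b did not pass. Of 16 mast and myeloid markers 2 reached 1 TPM in at least 3 libraries, and Mpo, Ctsg, Lyz2, Itgam, Ly6g and Mcpt8 were at 0. Of the 2, Hdc rose with DTPA from 0.244 ± 0.0375 to 2.59 ± 0.369 TPM (log2 1.52), and Cd68 did not pass. The list summed to 2.11 to 3.01 TPM in control, 4.87 to 5.18 with DTPA, 2.18 to 3.63 with DFO and 2.98 to 4.04 with SA. Of 12 lymphoid markers 2, Cd79a and Ptprcap, reached 1 TPM in at least 3 libraries, and both rose with DTPA (log2 0.74 and 1.02). This list summed to 0.731 to 1.27, 2.87 to 3.71, 0.786 to 1.56 and 1.12 to 1.87 TPM in the same order. The part of these markers in the differences described next was not tested, and in bulk RNA fewer cells of a type and less RNA per cell cannot be told apart.

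Nearly the whole set fell with DTPA. Of the 30 tested genes, 28 fell, 1 (Pfkm) rose and 1 (Aldoc) did not pass, by limma on log2(TPM + 1) with Benjamini-Hochberg adjustment over 11917 genes and a threshold of 0.05. Over all tested genes, 42.1% were called lower and 23.5% higher, so a fall was common in these cells, but a fall of at least 2-fold was not: 17 of the 30 fell that far, against 6.16% of all genes. The median log2 fold change was -1.27 for the 30 genes and -0.11 for all genes. In 28 genes every DTPA library lay below every control library (44.1% of all genes did), and in Pfkm every one lay above (25.5%). Together the 35 genes took 1.01, 1.18 and 1.10 percent of all TPM in the control libraries and 0.580, 0.582 and 0.573 percent in the DTPA libraries. DFO and SA left the set at 1.01% ± 0.0736 and 0.982% ± 0.0613 (SD, n = 3), ranges that overlap the control.

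Means are given ± SD over the 3 libraries of a group, log2 fold changes ± SE, and fold differences are ratios of mean TPM, a scale corrected for transcript length. Because 1 is added to each TPM before the logarithm, the log2 values understate the change of genes near 1 TPM. When values were rescaled by the median ratio to a common reference, the median of all genes under DTPA moved from -0.11 to 0.00, and the split of all called genes from 2796 higher and 5014 lower to 3842 and 3858. Under this scaling 24 of the 30 genes were called lower and 2 higher.

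**Figure D1:**
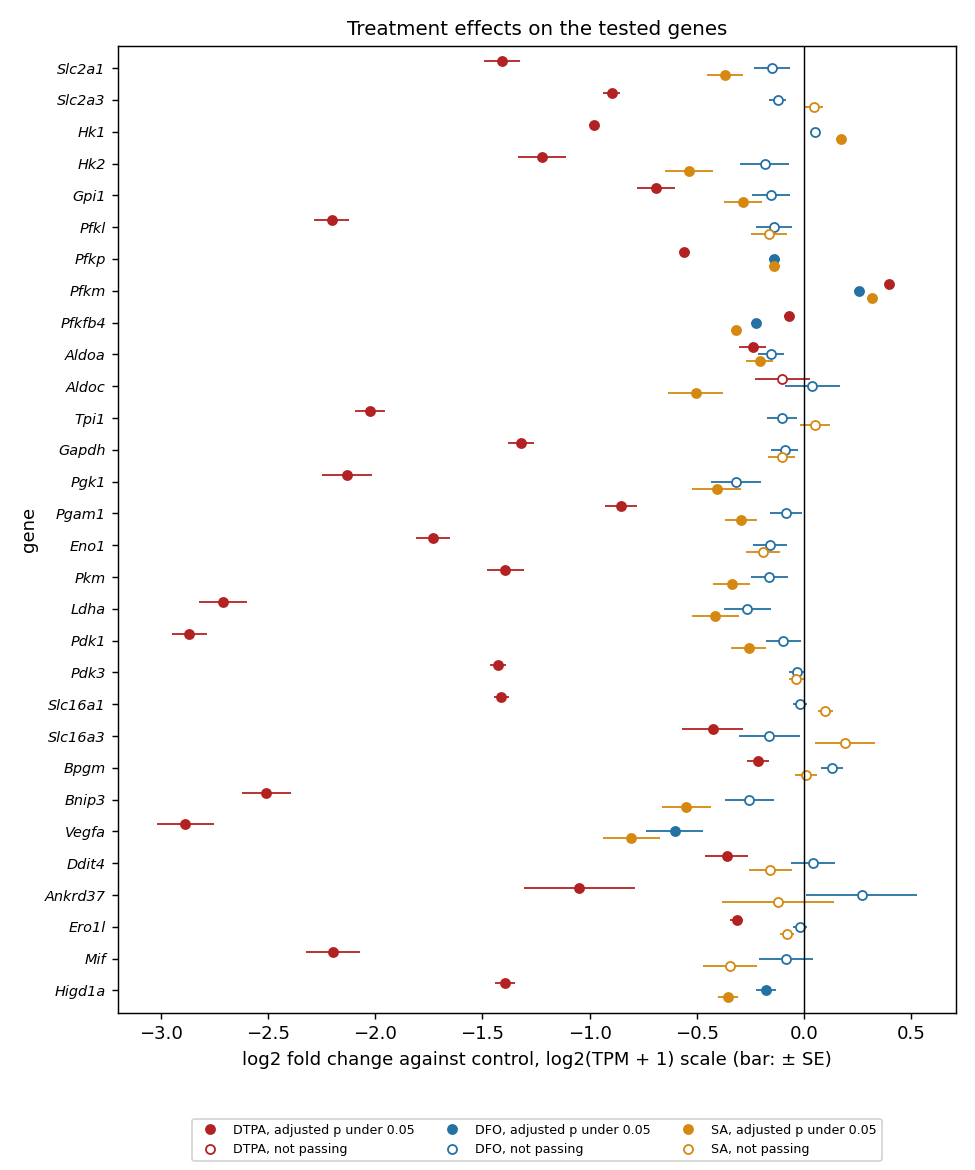
Log2 fold change (log2(TPM + 1) scale, bar ± SE) of the 30 tested genes with DTPA, DFO and SA against control, from limma over 12 libraries; filled points passed an adjusted p of 0.05. DTPA points reach -2.89 in Vegfa, while DFO and SA points lie between -0.81 and 0.32, and Pfkm is to the right of 0 with all 3 treatments.

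Both glucose transporters fell with DTPA. Slc2a1, which encodes the glucose transporter GLUT1, stood at 45.1, 53.1 and 52.0 TPM in control and 17.8, 17.7 and 19.1 with DTPA, a 2.75-fold fall (log2 -1.41 ± 0.083, limma adjusted p = 2.73e-08). Slc2a3, which encodes the high-affinity transporter GLUT3, fell from 20.0, 19.7 and 20.8 to 10.7, 9.94 and 10.4 TPM (log2 -0.90 ± 0.040, adjusted p = 2.58e-09). No DTPA library reached the control range in either gene. With DFO neither gene passed, although the Slc2a3 libraries (18.5, 18.3 and 18.5 TPM) all lay below control. With SA, Slc2a1 fell to 36.2, 42.9 and 36.7 TPM (log2 -0.37 ± 0.083, adjusted p = 0.00859) while Slc2a3 stood at 20.1, 21.5 and 21.0 TPM, a range that overlapped control (adjusted p = 0.456). Slc2a3 made up 28.8% ± 1.84 of the TPM of both transporters in control, 36.3% ± 1.15 with DTPA, 29.1% ± 1.77 with DFO and 35.2% ± 1.63 with SA.

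**Figure D2:**
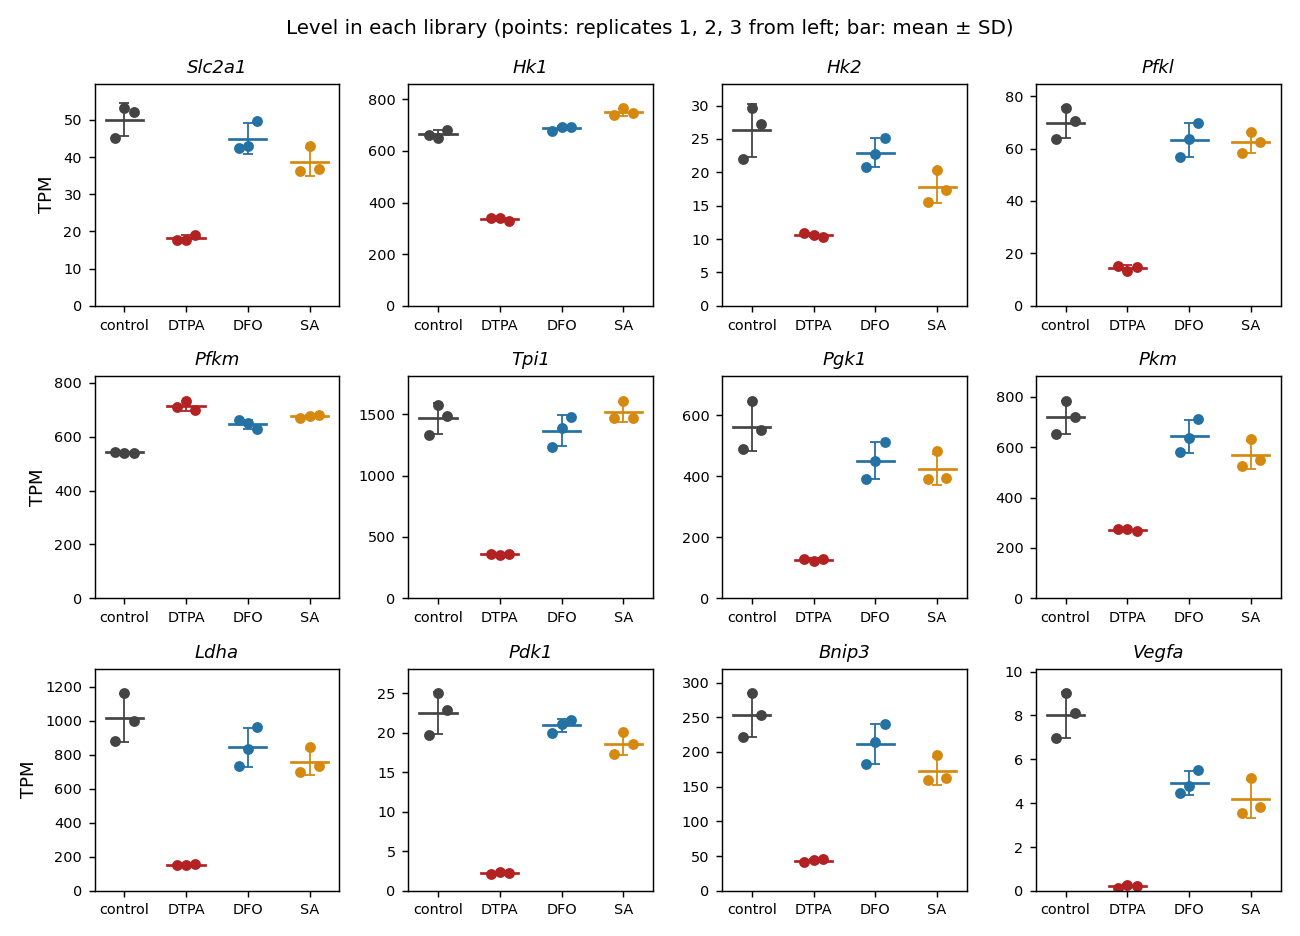
TPM in each library (points), group mean (bar) and SD (whiskers) for 12 of the genes, with a linear axis from 0 in each panel and the groups control, DTPA, DFO and SA along the x axis. In Vegfa, Pdk1, Ldha and Bnip3 the 3 DTPA points lie far below all others, and in Pfkm the control points lie below those of every treatment.

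In the preparatory steps of glycolysis, which spend ATP to make triose phosphates, 7 of 9 genes fell with DTPA (42.1% of all tested genes did). Hk1, the hexokinase that red cells use most to phosphorylate glucose, fell from 663, 652 and 682 to 341, 341 and 329.9 TPM (1.97-fold, log2 -0.98 ± 0.022, limma adjusted p = 7.62e-12). Its inducible relative Hk2 fell from 22.0, 29.6 and 27.3 to 10.9, 10.7 and 10.3 TPM (log2 -1.22 ± 0.11, adjusted p = 1.58e-06). The pair parted under SA: Hk1 rose to 739, 765 and 745 TPM (log2 0.17 ± 0.022, adjusted p = 0.000255), above every control library, and Hk2 fell to 15.5, 20.4 and 17.4 TPM (log2 -0.54 ± 0.11, adjusted p = 0.0058), below every control library. Neither passed with DFO. Gpi1, glucose-6-phosphate isomerase, fell from 335 ± 25.9 to 207 ± 1.77 TPM with DTPA.

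The phosphofructokinase subunits, which catalyse the committed step, moved in opposite directions. Pfkl, the liver-type subunit, fell from 63.7, 75.3 and 70.7 TPM in control to 15.2, 13.3 and 14.7 with DTPA, a 4.86-fold fall (log2 -2.20 ± 0.083, limma adjusted p = 5.52e-10). Pfkp, the platelet-type subunit, fell less, from 172, 173 and 179 to 117, 118 and 120.0 TPM (log2 -0.56 ± 0.026, adjusted p = 2.85e-09). Pfkm, the muscle-type subunit, rose from 543, 541 and 541 to 712, 733 and 698 TPM (log2 0.40 ± 0.023, adjusted p = 1.93e-08). Pfkm also rose with DFO, to 660.3, 651 and 627 TPM (log2 0.25 ± 0.023, adjusted p = 9.84e-05), and with SA, to 669, 677 and 679 TPM (log2 0.32 ± 0.023, adjusted p = 3.34e-06). It was the 1 gene among the 30 that rose with all 3 treatments, and its 9 treated libraries all lay above the 3 controls, which these comparisons share. Pfkp fell with DFO to 159.9, 154 and 163 TPM and with SA to 156, 162 and 158 TPM, each with a log2 fold change of -0.14.

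**Figure D3:**
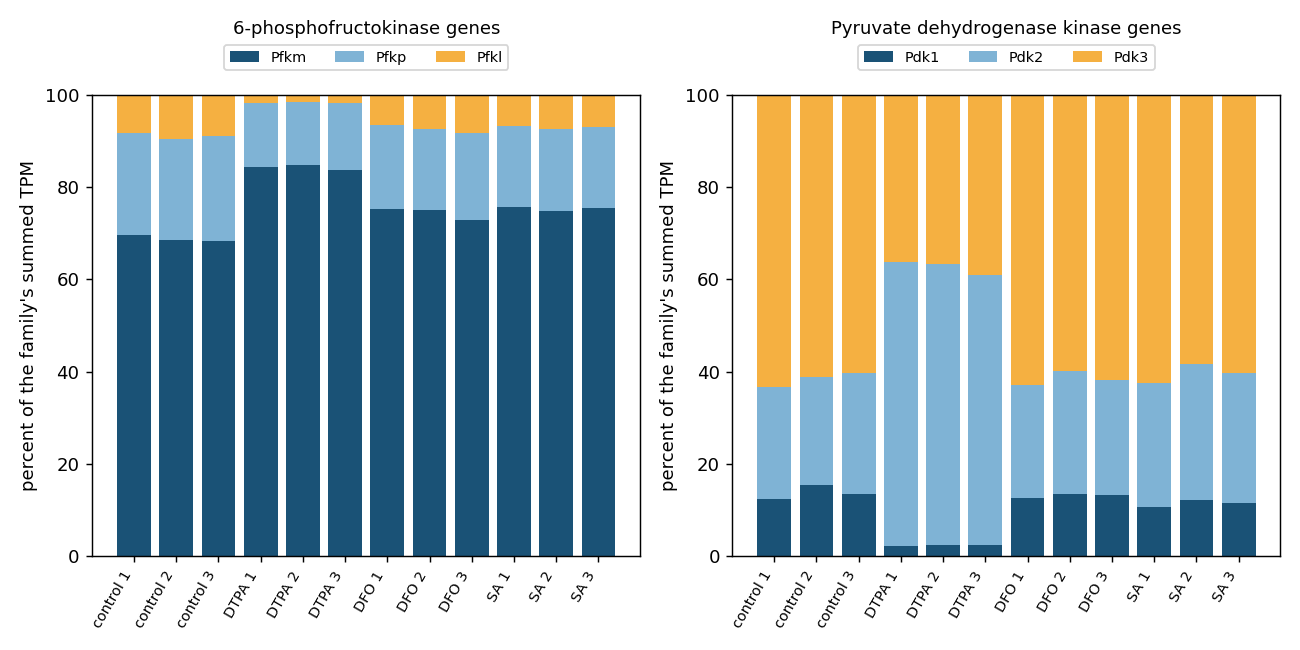
Percent of the summed TPM of 3 phosphofructokinase genes (left) and 3 pyruvate dehydrogenase kinase genes (right) taken by each gene in each of the 12 libraries, on an axis from 0 to 100. The Pfkm part is widest in the DTPA libraries and narrowest in control, and Pdk2 takes most of the right-hand bars only with DTPA.

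The make-up of the family shifted with each treatment. Pfkm made up 68.9% ± 0.697 of phosphofructokinase TPM in control, 84.3% ± 0.500 with DTPA, 74.4% ± 1.26 with DFO and 75.3% ± 0.469 with SA. The Pfkl share was 8.89% ± 0.684 in control and 1.70% ± 0.145 with DTPA. The summed TPM of the 3 genes was 786 ± 6.29 in control, 847 ± 16.2 with DTPA, 868 ± 8.95 with DFO and 896 ± 11.3 with SA.

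Pfkfb4, a bifunctional enzyme that sets the level of the phosphofructokinase activator fructose 2,6-bisphosphate, had its highest level in control and its lowest with SA. It stood at 198, 188 and 196 TPM in control, 186, 185 and 184 with DTPA, 169.9, 165 and 163 with DFO and 157, 154 and 156 with SA. It fell most with SA (log2 -0.32 ± 0.024, limma adjusted p = 5.34e-06) and next with DFO (log2 -0.22 ± 0.024, adjusted p = 0.000274), and its fall with DTPA was small (log2 -0.07, adjusted p = 0.0242). That small fall turned to a rise of 0.06 under median-of-ratios scaling, so its direction with DTPA depends on the scaling.

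Aldoa, the main aldolase of these cells and of muscle, stood at 2655, 3064 and 2883 TPM in control and 2439.6, 2442 and 2389 with DTPA (log2 -0.24 ± 0.062, limma adjusted p = 0.00487), a 1.18-fold fall whose call was lost with median-of-ratios scaling (adjusted p = 0.202). Aldoc, the brain-type aldolase, was at 9.42, 13.0 and 11.8 TPM in control and 11.1, 9.92 and 10.5 with DTPA, overlapping ranges (adjusted p = 0.517), and fell with SA to 6.47, 9.49 and 7.36 TPM (log2 -0.51 ± 0.13, adjusted p = 0.0165), where 1 of the 3 libraries overlapped control. Tpi1, the isomerase that makes both trioses usable, had a larger fall with DTPA, from 1335, 1579 and 1484 to 361, 356 and 360.0 TPM (4.08-fold, log2 -2.02), and did not pass with DFO or SA.

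All 5 genes of the payoff steps, which return ATP and NADH, fell with DTPA (42.1% of all tested genes did), by log2 -0.85 to -2.13. Pgk1, which makes the first ATP of this stage, fell from 488, 647 and 553 to 129, 122 and 129 TPM (4.44-fold, log2 -2.13 ± 0.12, limma adjusted p = 1.33e-08). Pkm, the pyruvate kinase of most non-hepatic tissues, fell from 653, 784 and 719 to 277, 274 and 265 TPM (2.64-fold, log2 -1.39 ± 0.087, adjusted p = 4.47e-08). Eno1 (enolase) went from 657 ± 64.4 to 197 ± 2.73 TPM, Gapdh (glyceraldehyde-3-phosphate dehydrogenase) from 76.6 ± 6.08 to 30.1 ± 1.37 and Pgam1 (phosphoglycerate mutase) from 288 ± 27.5 to 159 ± 1.44. None of the 5 passed with DFO. With SA, Pgk1 (392, 482 and 395 TPM), Pkm (525, 634 and 548 TPM) and Pgam1 fell, by log2 -0.41, -0.34 and -0.29. Pklr, the erythroid and liver pyruvate kinase gene, is not among the 35. It fell alongside Pkm with DTPA and rose with DFO (log2 0.21). The Pkm share of both was 79.8% ± 1.33 in control, 76.0% ± 0.653 with DTPA, 75.3% ± 1.55 with DFO and 76.8% ± 1.80 with SA.

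Genes that direct pyruvate to lactate and away from mitochondria had some of the largest falls. Ldha, the lactate dehydrogenase A subunit, fell from 881, 1162 and 999.9 TPM in control to 153, 149.9 and 157 with DTPA, a 6.62-fold fall (log2 -2.71 ± 0.11, limma adjusted p = 1.06e-09). Pdk1, a kinase that switches pyruvate dehydrogenase off, fell from 19.8, 25.0 and 22.9 to 2.08, 2.38 and 2.21 TPM, a 10.2-fold fall (log2 -2.87 ± 0.082, adjusted p = 5.14e-11). Pdk3, another kinase of this family, fell from 101, 99.4 and 103 to 35.4, 37.9 and 37.6 TPM (log2 -1.43 ± 0.036). The highest DTPA library was below the lowest control in all 3 genes. Pdk2, which is not one of the 35, rose from 40.4 ± 3.75 to 59.9 ± 3.48 TPM (log2 0.56 ± 0.066, adjusted p = 1.4e-05), so its share of the 3 kinases was 24.6% ± 1.46 in control and 60.4% ± 1.62 with DTPA. The Pdk1 share was 13.7% ± 1.52 and 2.24% ± 0.0999.

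The lactate transporters differed in level. Slc16a1 (MCT1) fell with DTPA from 125, 121 and 122 to 43.9, 46.0 and 46.4 TPM (2.70-fold, log2 -1.41 ± 0.034, limma adjusted p = 1.27e-11). Its SA libraries stood at 132, 128 and 133 TPM, all above control, but the adjusted p was 0.0629. Slc16a3 (MCT4), the hypoxia-inducible exporter of glycolytic tissues, was near the detection filter, with 1.97, 1.73 and 1.29 TPM in control and 0.924, 1.28 and 0.749 with DTPA (log2 -0.43 ± 0.14, adjusted p = 0.0201). That value rested on 32 to 76 reads per library, and the call was lost when the 6 libraries compared were fitted alone (adjusted p = 0.0611) and without control replicate 1 (0.0816) or 2 (0.0556) or DTPA replicate 1 (0.0522) or 3 (0.0780). Bpgm, whose product makes the hemoglobin ligand 2,3-bisphosphoglycerate in red cells, stood at 41.7, 40.1 and 41.3 TPM in control and 32.7, 34.8 and 38.3 with DTPA (log2 -0.22 ± 0.052, adjusted p = 0.00303), a call that median-of-ratios scaling ended (adjusted p = 0.146). With DFO its libraries (45.0, 45.1 and 44.8 TPM) all lay above control without passing (adjusted p = 0.143).

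Among the hypoxia-inducible genes outside glycolysis, all 7 tested fell with DTPA (42.1% of all tested genes did). Vegfa, the angiogenic growth factor, fell from 6.95, 9.01 and 8.11 to 0.131, 0.288 and 0.232 TPM, 36.9-fold as a ratio of means and log2 -2.89 ± 0.13 with the pseudocount (limma adjusted p = 3.08e-09). The DTPA libraries held 4, 10 and 8 reads for Vegfa against 216, 294 and 243 in control. Bnip3, a mitophagy receptor, fell from 221, 284 and 254 to 41.2, 43.8 and 45.7 TPM (5.81-fold, log2 -2.51 ± 0.11, adjusted p = 2.7e-09). Mif, a cytokine, fell from 352 ± 56.9 to 75.6 ± 3.96 TPM, and Higd1a, a mitochondrial protein induced by hypoxia, from 138, 146 and 146 to 52.3, 54.0 and 55.3 TPM (log2 -1.40).

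The other 3 fell less or from a low level. Ero1l, an oxidase of the endoplasmic reticulum that forms disulfide bonds, fell from 166, 171 and 171 to 131, 134 and 142 TPM (log2 -0.31 ± 0.031, limma adjusted p = 2.96e-06). Ddit4, an inhibitor of mTORC1 signalling, fell from 10.8, 9.13 and 10.7 to 7.28, 9.08 and 6.88 TPM (log2 -0.36 ± 0.10, adjusted p = 0.0078, and 0.0507 under median-of-ratios scaling). Ankrd37, an ankyrin repeat gene, fell from 1.52, 2.39 and 3.62 to 0.365, 1.20 and 0.485 TPM (log2 -1.05 ± 0.26, adjusted p = 0.00376), with 17 to 39 reads in control and 4 to 15 with DTPA. Every DTPA library lay below every control library in these 3 genes.

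The genes listed at 0 in all 12 libraries were Pfkfb3 (the other bifunctional regulator of phosphofructokinase), Ldhb (the lactate dehydrogenase B subunit), Ndrg1 (a hypoxia-responsive gene), Bhlhe40 (a transcriptional repressor) and Ak4 (a mitochondrial adenylate kinase). A floor of 3 reads corresponded to between 0.0490 and 0.0635 TPM for Pfkfb3, 0.236 and 0.306 for Ldhb, 0.0562 and 0.0728 for Ndrg1, 0.0788 and 0.102 for Bhlhe40, and 0.0798 and 0.103 for Ak4. These floors cover counting error only and set no limit on expression, since whether an exact 0 reflects the RNA or the assignment of reads was not tested. No fold change can be given for these genes.

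With the iron chelator DFO, 5 of the 30 genes passed. Pfkm rose, and Vegfa, Pfkfb4, Higd1a and Pfkp fell, so 1 gene was called higher (8.39% of all tested genes were) and 4 lower (2.28%). Called or not, 24 of the 30 had a log2 fold change below 0, against 33.2% of all genes, and the median was -0.13 for the 30 and 0.05 for all. Vegfa fell from 8.02 ± 1.03 TPM in control to 4.47, 4.78 and 5.53 in the DFO libraries (log2 -0.60 ± 0.13, limma adjusted p = 0.0154), all below the controls. Higd1a stood at 120.4, 125 and 135 TPM (log2 -0.18 ± 0.046, adjusted p = 0.0341), again below every control library. Of the widely used hypoxia-inducible genes of the set, Ldha was at 733, 836 and 962 TPM (log2 -0.26 ± 0.11, adjusted p = 0.16), Pgk1 at 392, 449.9 and 513 (-0.32 ± 0.12, 0.111), Bnip3 at 182, 214 and 239.9 (-0.26 ± 0.11, 0.187) and Slc2a1 at 42.4, 42.9 and 49.7 (-0.15 ± 0.083, 0.287). All 4 had negative changes that did not pass, and their libraries overlapped control. Outside the 35, the list of further hypoxia-inducible genes described later had 3 genes that rose with DFO. One was the transferrin receptor gene Tfrc, whose RNA is also stabilised when iron is low, from 883 ± 24.1 to 1245 ± 48.8 TPM (log2 0.50 ± 0.034, limma adjusted p = 1.94e-05). The others were Selenbp1 (log2 0.27) and Plin2 (log2 0.12), while Hmox1 fell (log2 -0.56).

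Both the Vegfa and the Higd1a call were lost when control replicate 2 or 3, or DFO replicate 1 or 2, was left out, with 2 genes called lower in each case (Vegfa adjusted p from 0.0511 to 0.0620, Higd1a from 0.0979 to 0.114). Median-of-ratios scaling changed the split of all called genes from 1000 higher and 272 lower to 423 and 646, with 5 of the 30 lower and 1 higher.

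With SA, 15 genes fell and 2, Pfkm and Hk1, rose (background 6.75% lower and 15.4% higher). The median log2 fold change was -0.20 over the 30 genes and 0.05 over all, and no fall reached 2-fold (0.21% of all genes fell that far). Vegfa again had the largest, to 3.57, 5.17 and 3.82 TPM (log2 -0.81 ± 0.13, limma adjusted p = 0.00132). Bnip3 fell to 159, 196 and 162 TPM (log2 -0.55 ± 0.11, adjusted p = 0.00516), Ldha to 699, 844 and 733 TPM (log2 -0.41 ± 0.11, adjusted p = 0.0206) and Higd1a to 107, 118 and 111 TPM (log2 -0.35 ± 0.046, adjusted p = 0.000267). In these 4 genes no SA library reached the control range. Pdk1 (17.3, 20.1 and 18.6 TPM, log2 -0.26 ± 0.082, adjusted p = 0.0438), Gpi1, Aldoa and Aldoc passed with libraries that overlapped control. The lactate transporters, Pdk3, Bpgm, Tpi1, Gapdh, Eno1, Pfkl, Slc2a3, Ddit4, Ankrd37, Ero1l and Mif did not pass.

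The count of falls with SA moved with single libraries: it was 7 without control replicate 2, 9 without control replicate 3, 7 without SA replicate 1 and 8 without SA replicate 3. With only the 6 control and SA libraries fitted, Aldoa, Aldoc, Gpi1, Pdk1 and Pgk1 lost their call (limma adjusted p from 0.0603 to 0.105). In that fit 2 other genes gained a call. Bnip3, Higd1a, Hk1, Hk2, Pfkfb4, Pfkm, Pfkp, Slc2a1 and Vegfa kept their call in every alternative fit, and Aldoa, Aldoc, Gpi1, Ldha, Pdk1, Pgam1, Pgk1 and Pkm lost it in at least 1. Median-of-ratios scaling changed the split of all called genes from 1838 higher and 804 lower to 1124 and 1624, with 16 of the 30 lower and 2 higher.

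The treatments were also compared with each other, which tests whether their effects differ. Against DFO, 25 of the 30 genes were lower with DTPA and 2 higher (46.4% and 19.6% of all tested genes), and against SA 25 were lower and 3 higher (47% and 20.1%). Falls of at least 2-fold made up 18 of the 30 against DFO and 16 against SA, where 6.13% and 6.68% of all genes fell that far. Vegfa was lower with DTPA than with DFO by log2 -2.28 ± 0.13 (limma adjusted p = 2.56e-08) and than with SA by -2.08 ± 0.13 (5.67e-08). Pfkm was higher with DTPA than with DFO by 0.14 ± 0.023 (0.000137) and than with SA by 0.08 ± 0.023 (0.00751). Pfkfb4 was higher with DTPA than with either, and Aldoc was higher with DTPA than with SA (log2 0.40 ± 0.13, adjusted p = 0.0156).

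DFO and SA differed in 6 of the 30 genes. Aldoc, Pfkfb4 and Higd1a were higher with DFO (7.22% of all genes were), by log2 0.54, 0.09 and 0.18. Slc2a3, Hk1 and Slc16a1 were lower with DFO (6.3% of all genes were), by log2 -0.17, -0.12 and -0.12 (limma adjusted p from 0.00417 to 0.0452 over the 6). These calls were fragile: 0 genes were called higher without DFO replicate 2 or without SA replicate 1 or 3, 1 was without DFO replicate 3, and 1 gene was called lower without DFO replicate 2 or 3 or without SA replicate 2 or 3. Bnip3, Hk2 and Slc2a1, which fell with SA and did not pass with DFO, did not pass in the direct comparison of DFO and SA (adjusted p = 0.12, 0.0637 and 0.117).

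Replicates of a group differed in a shared way in these genes. In 18 of the 30, control replicate 2 was above 3 and 3 above 1, DFO replicate 3 above 2 and 2 above 1, and SA replicate 2 above both others, an order seen in 0.831% of all tested genes and noticed after the values were seen. The 18 were Aldoa, Aldoc, Bnip3, Eno1, Gapdh, Gpi1, Higd1a, Hk2, Ldha, Mif, Pdk1, Pfkl, Pgam1, Pgk1, Pkm, Slc2a1, Tpi1 and Vegfa. The 12 others included Hk1, Pfkm, Pfkp, Pfkfb4, Slc16a1 and Pdk3. Replicate numbers carry no order of their own. Ldha shows the size: 881, 1162 and 999.9 TPM in control, 733, 836 and 962 with DFO and 699, 844 and 733 with SA, but 153, 149.9 and 157 with DTPA. The median SD between replicates (log2) was 0.122 for the 30 genes and 0.0645 for all genes in control, 0.0998 and 0.0650 in DFO, 0.0966 and 0.0626 in SA, and 0.0484 and 0.0668 in DTPA.

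The highest library of each of the 3 groups was also its most deeply sequenced. These held 23714595 reads (control replicate 2), 23479580 (DFO replicate 3) and 22669418 (SA replicate 2). Replicate 1, where 21, 20 and 22 of the 30 genes were lowest in control, DFO and SA, was not the shallowest. The fewest reads were in control replicate 3 (22036863), DFO replicate 2 (19864704) and SA replicate 3 (20935102). The part of depth in the order was not tested. The 18 genes had median log2 fold changes of -1.57 with DTPA, -0.15 with DFO and -0.34 with SA, and the 12 others -0.49, -0.02 and -0.01. Since the 18 were picked by the order of values that also enter these changes, the split is descriptive and was not tested. Of the 18, 13 fell with SA, and of the 12 others 2 fell and 2 rose.

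**Figure D4:**
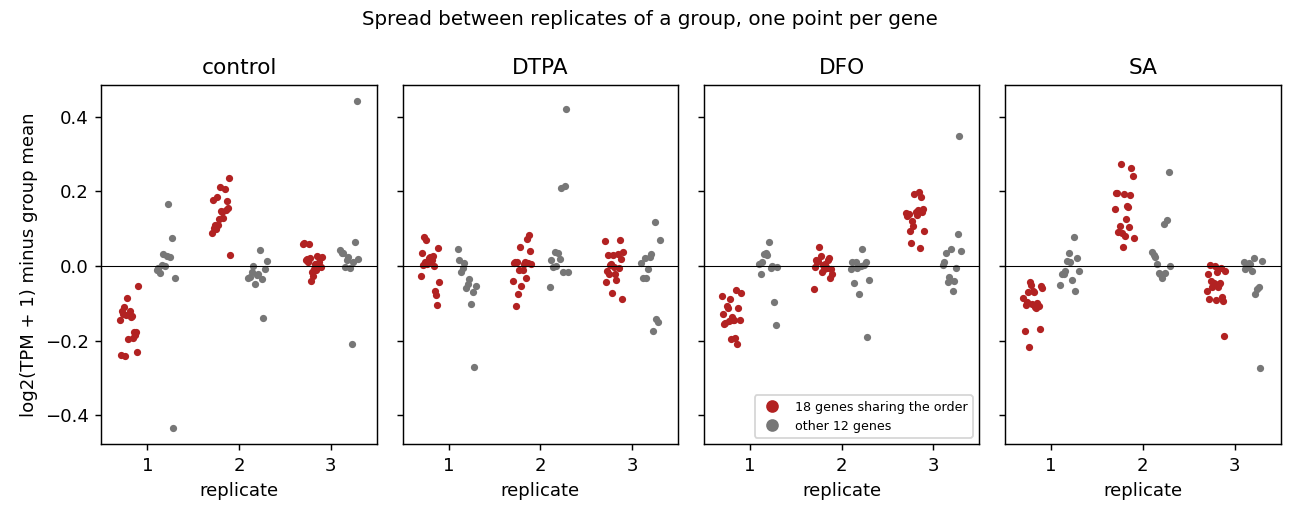
Deviation of each of the 30 tested genes from its group mean on the log2(TPM + 1) scale, by replicate within control, DTPA, DFO and SA; red points are the 18 genes that share the order and grey points the 12 others. Red points lie together above 0 in control replicate 2, DFO replicate 3 and SA replicate 2 and below 0 in replicate 1 of these groups, and are spread about 0 in all DTPA replicates.

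Several of these genes have near-identical copies in the genome, so reads may have been split between them. Of 25 such copies listed, 7 reached 1 TPM in at least 3 libraries. Eno1b, a copy of Eno1, stood at 215, 268 and 237 TPM in control and 71.4, 65.0 and 70.1 with DTPA (log2 -1.78), and Tpi-rs11 at 92.5, 107 and 112 and 25.8, 34.7 and 27.7 TPM. Ldha-ps2 (12.0 ± 1.64 TPM in control), Pgk1-rs7 (11.4 ± 1.52), Pgam1-ps2 (5.21 ± 1.88), Tpi-rs10 and Mif-ps were lower still. The levels of Eno1, Tpi1, Ldha, Pgk1, Pgam1, Mif and of Gapdh, a gene with many processed copies, are therefore uncertain, and no copy's group means moved against its parent's with DTPA.

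Genes of the same pathways outside the 35 were counted from 4 lists, to be read against the shares of all tested genes called higher and lower, which were 23.5% and 42.1% with DTPA, 8.39% and 2.28% with DFO, and 15.4% and 6.75% with SA. Of 38 further genes of glycolysis, glycogen and pyruvate transport, 21 were tested, and with DTPA 11 rose and 5 fell, with DFO 5 and 2, and with SA 4 and 3. The largest changes with DTPA were a rise of Slc2a9, a urate and hexose transporter, from 1.90 ± 0.304 to 8.06 ± 1.10 TPM (log2 1.64) and falls of Pklr (-1.07), the pyruvate carrier gene Mpc1 (-0.71) and the phosphoglucomutase gene Pgm1 (-0.60). The median over the 21 was 0.18 with DTPA, against -1.27 for the 30 genes, and no test of that difference was made. Of 45 further hypoxia-inducible genes 23 were tested, and with DTPA 5 rose and 13 fell, with DFO 3 and 1, and with SA 5 and 4. Cited2, which encodes a competitor of HIF for its coactivators, rose with DTPA from 31.5 ± 4.78 to 71.6 ± 0.311 TPM (log2 1.17) and Hif3a, an inhibitory HIF family member, from 1.63 ± 0.132 to 5.69 ± 0.230 (log2 1.35). Hmox1, the heme oxygenase 1 gene, fell from 148 ± 0.718 to 66.8 ± 4.62 TPM (log2 -1.14). Fam162a, a mitochondrial protein gene, fell from 1695 ± 92.1 to 925 ± 43.0 TPM (log2 -0.87). With SA, Hmox1 fell further, to 57.1 ± 3.18 TPM (log2 -1.36). Trib3, also of this list, rose with SA from 11.0 ± 1.60 to 26.1 ± 0.731 TPM (log2 1.18).

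Of 11 genes for HIF subunits and oxygen sensing 8 were tested. With DTPA 7 of the 8 fell and none rose, while with DFO 1 rose and with SA 1 fell. Egln1, the main HIF prolyl hydroxylase and itself a HIF target, fell from 21.3 ± 4.47 to 10.4 ± 0.824 TPM (log2 -0.95, limma adjusted p = 0.000154). Arnt, the shared HIF partner, fell from 71.5 ± 2.43 to 42.3 ± 1.20 TPM (log2 -0.74), and Hif1an and Vhl, which restrain HIF, by log2 -0.49 and -0.29. The α subunit gene Hif1a fell less, from 94.6 ± 2.20 to 81.2 ± 2.81 TPM (log2 -0.22, limma adjusted p = 0.000146), and did not pass with DFO or SA. In the pentose phosphate pathway, which branches from glucose 6-phosphate and supplies NADPH, 7 of 10 genes were tested: 5 fell with DTPA, 3 with DFO and 5 with SA, and none rose. G6pdx, its first enzyme, fell from 194 ± 6.19 TPM to 129.7 ± 2.11 with DTPA, 158 ± 2.35 with DFO and 133 ± 2.87 with SA, by log2 -0.58, -0.30 and -0.54. Pgd, the next NADPH-forming enzyme, fell by log2 -0.88, -0.17 and -0.55 in the same order.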

How the data were processed

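Polyadenylated RNA was sequenced with a strand-specific kit in 12 libraries. Per the submitters' processing notes, reads were handled with Trimmomatic 0.33, FastQC and HISAT2 2.1.0 on build mm10, and featureCounts and edgeR are also named. The gene annotation they used was not given in the sources used here. Values are TPM as deposited by the authors, 55487 rows per library, of which 234 carried 1 of 114 repeated symbols (the copy with the highest mean was kept). TPM multiplied by GENCODE M21 exon length came out as whole reads within 0.1 read for 98.8% to 99.0% of values of up to 200 reads, which gave depths of 19864704 to 24339697 reads. Floors cover counting error only.

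The 11917 genes that reached 1 TPM in 3 or more libraries were fitted as log2(TPM + 1) with limma 3.58.1 (R 4.3.3), with 1 mean per group, a mean-variance trend and Benjamini-Hochberg adjustment within each of 6 comparisons, and the fit was tested on simulated data. Tables were handled in Python 3.11.15. The labels call the replicates biological, and p-values measure the spread between them. RefSeq windows are on GRCm38.p6, the assembly behind mm10. Aldoa has 2 gene models under 1 symbol.

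The 35 genes, the lists and the tests were chosen with earlier results of these data known. Values per library were set for 24 genes by name and for the 5 largest called changes per treatment. Outside that rule they are also given for Tpi1 and Pdk3. In the other lists at most 5 called genes of at least 5 TPM per treatment were named, and Pdk2 and Hif1a were added after their values were seen. Alternatives covered the pseudocount (0.1, 5), the filter (none, 5 TPM), median-of-ratios scaling, the libraries fitted, a replicate block, a 2-fold threshold, each library left out, and limma's voom on recovered reads (10 or more in 3 libraries), which was added after seeing the data.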

Additional observations from a re-analysis of the deposited data

How the results depend on the processing

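Of the calls against control, 24 of 29 with DTPA, 3 of 5 with DFO and 9 of 17 with SA were kept in every alternative fit that tested the gene, the 2-fold threshold aside. With DTPA the calls lost in some setting were those of Aldoa, Bpgm, Ddit4, Pfkfb4 and Slc16a3. Pfkfb4 turned from -0.07 to 0.063 under median-of-ratios scaling, where 2 genes were called higher with DTPA, and to 0.0051 (adjusted p = 0.858) with voom on recovered reads, an alternative chosen after seeing the data; the cause was not tested. A 2-fold threshold, stricter by construction, left 17 genes lower and 0 higher with DTPA, 0 either way with DFO, with SA and between DFO and SA, 0 higher with DTPA against DFO, and 16 lower and 0 higher with DTPA against SA. Fitting only the 6 libraries compared gave 2 genes higher with DFO (613 of all 11917 genes) and 1 higher with DFO than with SA (653 of all). Voom gave 10 genes lower with DFO, where 498 of all 11424 genes in that fit were called lower. It gave 7 higher and 6 lower with DFO than with SA, where 1065 and 1086 of the 11424 were. With 1 library left out at a time, genes lower with DTPA numbered 26 to 28, with DFO 2 to 4 and with SA 7 to 16, and genes higher numbered 1, 1 and 2 to 3. For DTPA against DFO 25 were lower and 2 higher each time, for DTPA against SA 25 to 26 and 2 to 3, and for DFO against SA 1 to 3 and 0 to 4. The replicate number as a block gave 5 genes higher with DFO than with SA in place of 3 (745 of all genes in place of 860), and otherwise counts within 1.5 times. Over all tested genes, 0 of 18 same-numbered pairs deviated together with r over 0.1 (from -0.04 to 0.05). Pairs with different numbers were as close to 0 (from -0.06 to 0.06), so these values cannot decide whether the numbers pair the libraries. Over the 30 genes alone 9 of 18 same-numbered pairs had r over 0.1 (from -0.69 to 0.73), beside 16 of 36 pairs with different numbers. Over all tested genes, 6 of 12 libraries correlated best with their own number. Depth limits Vegfa, Ankrd37 and Slc16a3, whose DTPA libraries held 4 to 10, 4 to 15 and 32 to 55 reads.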

Other observations

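Beyond the 35 genes, 81 tested genes showed the same order of replicates in control, DFO and SA. With DTPA 35 of these were called lower and 22 higher, beside 42.1% and 23.5% of all tested genes. They included 3 genes of the lists above, Egln1, Fam162a and P4ha1, which encodes a collagen prolyl hydroxylase subunit, and 3 copies of members.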
